A study of Mus musculus with 12 samples.

Results

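The macrophage lineage transcription factors examined here are 9 genes: Spi1, Runx1, Irf8, Cebpa, Cebpb, Maf, Mitf, Tfec and Zeb2. They were taken by Ensembl ID from the 38887 genes of the per-library tables, by a rule that uses their names and no measured value. The RNA-Seq series compared bone marrow-derived macrophages (BMMs), cells grown from marrow with M-CSF, of WT and IGF2BP2 KO mice. The KO mice combined the B6.Cg-Igf2bp2tm1.1Thor/J allele, in which loxP sites surround exons 4 and 5 of Igf2bp2, with 29P2-Lyz2tm1(cre)Ifo/J, in which Cre recombinase sits in the Lyz2 gene and is active in myeloid cells. The WT littermates had no floxed Igf2bp2 allele, and some of them carried Cre. Marrow came from mice of 3 to 4 months of age, and all cells received 50 ng/ml M-CSF for 6 days. Cells of 3 mice per genotype then stayed in medium with M-CSF alone (M0) or also received IL-4 at 20 ng/ml over 8 h (M2). This gave 4 groups of 3 libraries: WT M0, KO M0, WT M2 and KO M2.

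IGF2BP2 is an RNA-binding protein that stabilizes bound mRNAs. Macrophage identity rests on a small set of transcription factors. PU.1 (encoded by Spi1) opens macrophage enhancers together with RUNX1, C/EBP proteins and IRF8, and MAF proteins hold mature macrophages outside the cell cycle. MITF and TFEC belong to the MiT/TFE factors, which bind E-box motifs of lysosomal and osteoclast genes, and ZEB2 is a zinc finger repressor that maintains the identity of tissue macrophages. IL-4 acts through STAT6, which works at enhancers that these factors have already opened.

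Expression is given as TPM, which is scaled by transcript length and can be compared between genes, and tests were run on expected counts (estimated reads per gene). The libraries held 20011792 to 39632770 counts, with the 3 WT M2 libraries shallowest (at most 22744704) and KO M2 deepest by its median (37866974), though 1 KO M2 library (27347077) lay below some M0 libraries. The lowest count of a member in any library was 555 (Tfec), so that all 9 members passed the filter on low counts. Igf2bp2 itself was measured at 70.1, 58.3 and 42.1 TPM in WT M0 and at 56, 48.5 and 53.8 TPM in KO M0. In M2 it was measured at 120, 127 and 95.9 TPM in WT and at 75.4, 72.8 and 71.3 TPM in KO, so that the whole-gene value separated the genotypes in M2 but overlapped in M0. The gene that carries Cre, Lyz2, stood at 6126 to 15401 TPM in WT and at 15.2 to 50.2 TPM in KO. The loss of Igf2bp2 and the presence of Cre in Lyz2 cannot be told apart in these groups.

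The labelled cell type was checked against its markers. Each of the 10 macrophage markers was above 1 TPM in at least 1 library, and their summed level in M0 was 5361 to 6002 TPM for WT and 5382 to 5414 TPM for KO, and in M2 4931 to 5529 TPM for WT and 5042 to 5211 TPM for KO. Single markers moved within these sums. In KO M0, 1 of the 10 was higher, the integrin gene Itgam (log2 fold change 0.45, edgeR adjusted p = 0.00396). The complement genes C1qa (-0.38, edgeR adjusted p = 0.00685) and C1qc (-0.26, edgeR adjusted p = 0.0428) were the 2 lower ones. Of all tested genes, 5.50% were higher and 4.27% lower in KO M0. In M2, 0 of the 10 were called between the genotypes, against 2.68% of all tested genes. Cd14, a co-receptor for lipopolysaccharide, fell with IL-4 from 756 to 85.1 TPM in WT. Of the 7 T and NK cell markers, Cd3e, Cd3d, Cd3g and Trac were at 0 in all 12 libraries. The 8 neutrophil and granulocyte markers, 4 of them under 1 TPM throughout and Ly6g at 0, summed to 19.8 to 49.8 TPM in WT M0 and 15.5 to 16.8 TPM in KO M0. In bulk RNA, fewer cells of a type and less RNA per cell cannot be told apart.

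Promoter sequence of 7 of the 9 members was taken from RefSeq (GRCm38.p6), in 14 windows of the 250 bases before an annotated start. For the members whose IL-4 or genotype values are described in most depth, 4 windows are shown in the direction of transcription, with matches to searched motifs in capitals. The motifs, searched on both strands, were the STAT6 motif TTCNNNNGAA, the PU.1 motif GAGGAA, the E-box CACGTG and its variant CATGTG, the C/EBP motif TTGCNNAA and the AP-1 motif TGANTCA.
Tfec, chr6:16898442-16898691, minus strand: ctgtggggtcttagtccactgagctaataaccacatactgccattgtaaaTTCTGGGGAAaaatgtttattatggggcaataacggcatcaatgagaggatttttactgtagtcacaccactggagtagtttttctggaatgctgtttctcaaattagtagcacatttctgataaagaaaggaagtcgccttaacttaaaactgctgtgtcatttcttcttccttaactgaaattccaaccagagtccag
Zeb2, chr2:45110278-45110527, minus strand: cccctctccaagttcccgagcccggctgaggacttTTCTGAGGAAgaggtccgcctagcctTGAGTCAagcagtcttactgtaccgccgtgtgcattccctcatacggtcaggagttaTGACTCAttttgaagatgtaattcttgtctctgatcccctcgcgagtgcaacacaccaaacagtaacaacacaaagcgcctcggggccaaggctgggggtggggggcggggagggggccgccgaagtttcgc
Mitf, chr6:97806808-97807057, plus strand: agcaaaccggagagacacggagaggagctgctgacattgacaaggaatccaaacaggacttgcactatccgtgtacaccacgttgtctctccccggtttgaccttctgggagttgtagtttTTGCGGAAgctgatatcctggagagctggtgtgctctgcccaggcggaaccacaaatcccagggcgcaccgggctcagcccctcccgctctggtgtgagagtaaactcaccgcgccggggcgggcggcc
Cebpb, chr2:167688665-167688914, plus strand: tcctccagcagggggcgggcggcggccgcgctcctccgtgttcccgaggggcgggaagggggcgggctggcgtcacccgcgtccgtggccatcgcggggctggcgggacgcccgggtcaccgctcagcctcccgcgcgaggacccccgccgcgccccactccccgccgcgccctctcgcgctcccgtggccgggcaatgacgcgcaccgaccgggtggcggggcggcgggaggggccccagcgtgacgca
The Tfec window held a STAT6 motif that begins 200 bases before the start. Of the 4 Zeb2 windows 1, at an internal start, held a STAT6 motif 215 bases before the start that overlaps a PU.1 motif, and AP-1 motifs 189 and 132 bases before it. The STAT6 motif was found in 5.85% of all 32851 windows of this length, the PU.1 motif in 23.3% and the AP-1 motif in 6.75%. The Mitf window shown, at the most upstream of its 3 starts, held a C/EBP motif 129 bases before the start, which 9.56% of all windows held. The Cebpb window held none of these letters and had a GC content of 81.6%, against a median of 52.4% over all windows and 39.2% in the Tfec window. Outside the windows shown, the other 3 Zeb2 windows held a PU.1 motif each (the same letters in 2 windows that overlap) and 1 of them a C/EBP motif, the Runx1 windows a PU.1 motif and an E-box, and the Cebpa and Irf8 windows none of the motifs. A match describes the letters and says nothing of binding.

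At rest, the 9 factors spanned levels from 17.8 ± 2.16 TPM for Runx1 to 388 ± 16.7 TPM for Spi1 (mean ± SD, n = 3). In WT M0 the order was Spi1, Cebpb (187 ± 27.4 TPM), Irf8 (96.3 ± 5.69 TPM), Zeb2 (85.4 ± 16.2 TPM), Maf (55.2 ± 5.8 TPM), Cebpa (29.6 ± 4.23 TPM), Mitf (29.6 ± 2.18 TPM), Tfec (26 ± 2.7 TPM) and Runx1. The libraries of Irf8 and Zeb2 overlapped, as did those of Cebpa and Mitf and those of Mitf and Tfec, while the other neighbours were separate. Spi1 stood at the percentile 97 of the 12846 tested genes in WT M0, and Runx1 at 48.9. In KO M0, Zeb2 stood above Irf8 and Mitf above Cebpa, without overlap between these neighbours, and Irf8 and Maf overlapped. With IL-4 the order changed in the middle of the range. In WT M2, Zeb2 (162 ± 13.9 TPM) was second to Spi1 (308 ± 10.7 TPM) and above Cebpb (117 ± 9.53 TPM), and Tfec (55.4 ± 1.36 TPM) and Mitf (51.3 ± 5.85 TPM) lay above Cebpa (29.5 ± 2.23 TPM). In KO M2, Cebpb (145 ± 2.22 TPM) and Zeb2 (143 ± 17 TPM) overlapped in second place. Over all 12 libraries Tfec had the widest range of the 9 (highest over lowest library 3.06) and Runx1 the narrowest (1.32).

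**Figure D1:**
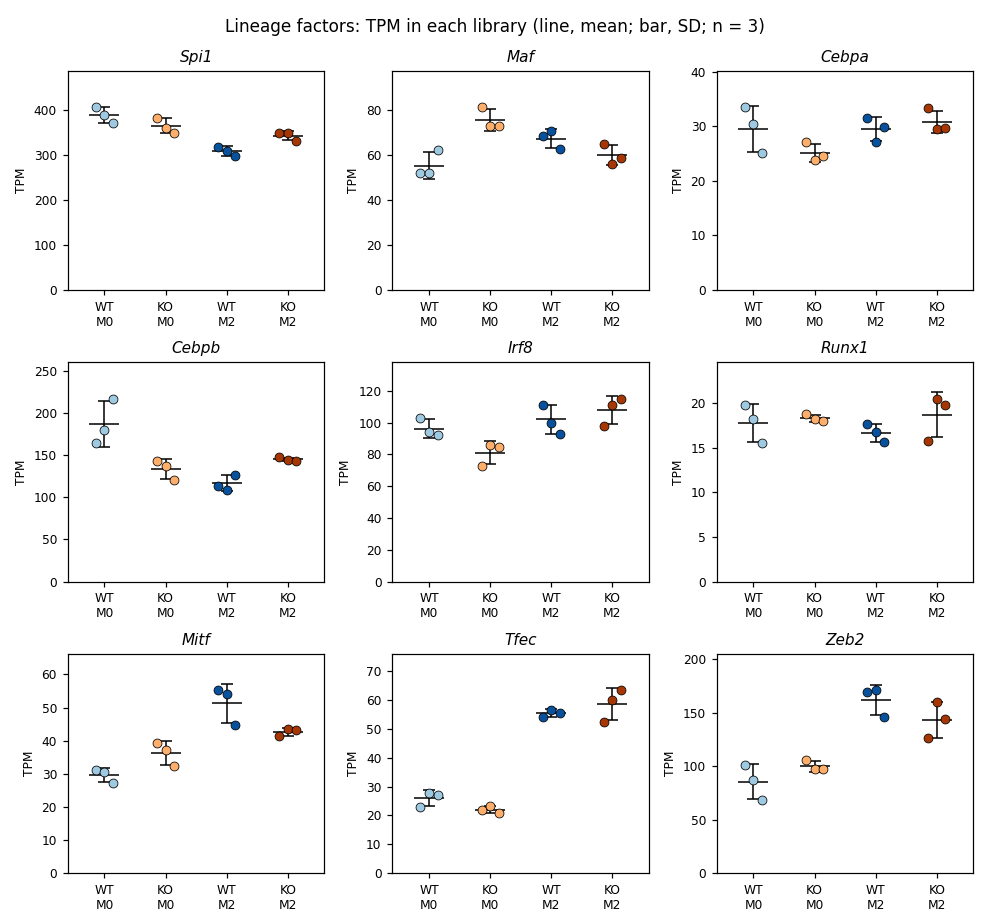
TPM (vertical axis, from 0) of each of the 9 factors in the 12 libraries, 1 panel per gene, with the 4 groups along the horizontal axis, points for mice, a line for the mean and a bar for the SD (n = 3). Tfec, Mitf and Zeb2 are higher in both M2 groups than in the M0 group of the same genotype with no overlap, while the Runx1 libraries stay between 15.5 and 20.5 TPM.

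IL-4 raised Tfec, Zeb2 and Mitf in both genotypes, and Tfec rose most. In WT macrophages 6 of the 9 factors changed, 4 upwards (Tfec, Zeb2, Mitf, Maf) and 2 downwards (Cebpb, Spi1). This is to be read against the share of all tested genes, since IL-4 moved 50.0% of them in WT (24.9% higher, 25.1% lower). In KO macrophages 6 of the 9 changed as well, 5 upwards (Tfec, Zeb2, Irf8, Mitf, Cebpa) and 1 downwards (Maf), against 52.8% of all tested genes (26.8% higher, 26.0% lower). Beside shares of this size, the counts of 6 of 9 single out nothing about the list. The median log2 fold change of the 9 was 0.18 in WT and 0.38 in KO, beside -0.0076 and 0.014 over all tested genes.

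As over all tested genes, fewer of the factors differed between the genotypes than between the treatments. In M0, 2 of the 9 factors differed between KO and WT, Maf upwards and Cebpb downwards, against 9.78% of all tested genes (5.50% higher, 4.27% lower). In M2, 0 of the 9 differed by edgeR (5 had an unadjusted p under 0.05, DESeq2 called 3, Spi1, Mitf and Cebpb, and limma called 0), against 2.68% of all tested genes (1.21% higher, 1.46% lower). The IL-4 response itself differed between KO and WT for 3 of the 9, Cebpb upwards and Mitf and Maf downwards, against 3.24% of all tested genes (1.11% higher, 2.13% lower). This last comparison subtracts the WT response from the KO response, and it shares its libraries with the other 4. The median absolute log2 fold change of the members was 0.23 in M0, 0.19 in M2 and 0.35 for the difference between the responses, beside 0.12, 0.11 and 0.15 over all tested genes.

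**Figure D2:**
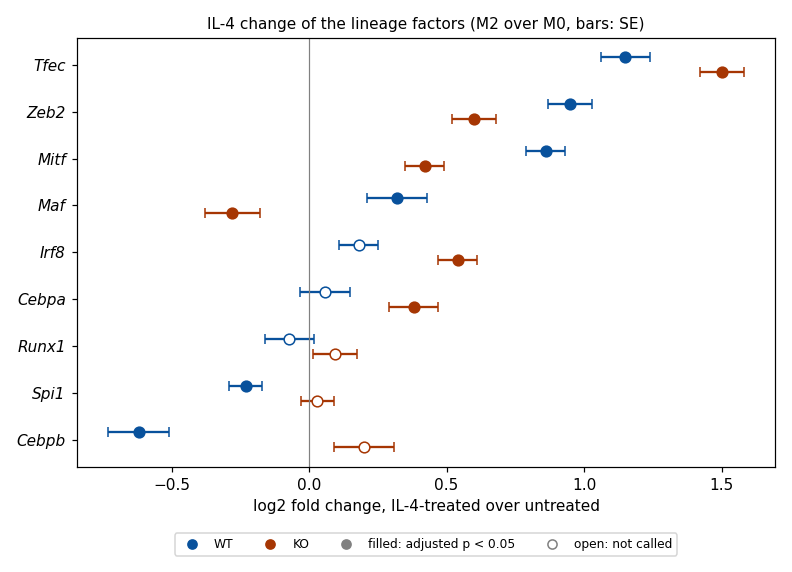
Log2 fold change of IL-4-treated over untreated cells (horizontal axis) for the 9 factors, in WT (blue) and KO (brown), with bars for the SE, filled points where the edgeR adjusted p was under 0.05 and open points elsewhere. Tfec, Zeb2 and Mitf lie to the right of 0 in both genotypes, Maf lies on opposite sides of 0 (0.32 in WT, -0.28 in KO), and Cebpb lies at -0.62 in WT and 0.20 in KO.

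PU.1 is the master regulator of the macrophage lineage, and its gene Spi1 (chromosome 2, bases 91082390 to 91115756 of GRCm38, plus strand) was the most abundant of the 9 in every group. Spi1 was measured at 405, 388 and 371 TPM in WT M0 and at 382, 359 and 349 TPM in KO M0. With IL-4 it was measured at 318, 309 and 297 TPM in WT and at 349, 347 and 330 TPM in KO. All WT M2 libraries lay below all WT M0 libraries and below all KO M2 libraries. In WT the IL-4 change was -0.23 on the log2 scale (SE 0.06, edgeR adjusted p = 0.00417), which is 1.17-fold lower, and the call held without any 1 library. In KO the change was 0.029 (SE 0.06, edgeR adjusted p = 0.691) on counts and -0.087 on log2(TPM + 1). Between KO and WT, Spi1 gave -0.05 in M0 (SE 0.06, edgeR adjusted p = 0.624) and 0.21 in M2 (SE 0.06, edgeR adjusted p = 0.0699). The M0 value was -0.021 without WT M0 replicate 3 and -0.066 without KO M0 replicate 2. DESeq2 called the M2 difference (DESeq2 adjusted p = 0.0142). For the difference between the IL-4 responses Spi1 gave 0.26 (SE 0.08, edgeR adjusted p = 0.0991), and with the mouse as a block the edgeR adjusted p was 0.0416.

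RUNX1 sets up the PU.1 programme in progenitors, and Runx1 (chromosome 16, bases 92601466 to 92826149, minus strand) had the narrowest range of the 9. Its levels were 19.8, 18.2 and 15.5 TPM in WT M0 and 18.8, 18.2 and 18 TPM in KO M0. In M2 they were 17.7, 16.8 and 15.6 TPM in WT and 15.8, 20.5 and 19.8 TPM in KO. The groups overlapped in all 4 pairwise comparisons. Its log2 fold changes ran from -0.072 (SE 0.09, IL-4 in WT) to 0.21 (SE 0.09, KO against WT in M2), with edgeR adjusted p between 0.206 and 0.809. In fits without 1 library the IL-4 value of Runx1 in WT ran from -0.144 to -0.006. Its partner Cbfb, the common subunit of RUNX complexes, fell with IL-4 in WT by 0.51 and in KO by 0.56 on the log2 scale (edgeR adjusted p = 1.92e-05 and 6.84e-06). Runx2, a relative known from bone, rose with IL-4 from 1.37 to 2.99 TPM in WT (log2 fold change 1.26, edgeR adjusted p = 1.45e-05). Runx1 made up 79.6% of the summed TPM of the 3 RUNX genes in WT M0 and 69.5% in WT M2.

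IRF8 partners PU.1 in monocytes and macrophages. Irf8 (chromosome 8, bases 120736358 to 120756694, plus strand) was measured at 103, 94.2 and 92 TPM in WT M0 and at 72.9, 85.8 and 84.9 TPM in KO M0. After IL-4 it was measured at 111, 100 and 93.1 TPM in WT and at 98.1, 111 and 115 TPM in KO. The KO libraries were all lower than the WT libraries in M0 and overlapped with them in M2. In KO, Irf8 rose with IL-4 by 0.54 on the log2 scale (SE 0.07, edgeR adjusted p = 4.29e-05), and this held without any 1 library. In WT the change was 0.18 (SE 0.07, edgeR adjusted p = 0.0587), and it passed the threshold with the mouse as a block (edgeR adjusted p = 0.0071) and without WT M2 replicate 3 (0.235, edgeR adjusted p = 0.0237). It was smaller on log2(TPM + 1) (0.073, limma adjusted p = 0.521) and without WT M2 replicate 1 (0.114, edgeR adjusted p = 0.247). The KO-to-WT difference was -0.24 in M0 (SE 0.07, edgeR adjusted p = 0.0549), which DESeq2 called (DESeq2 adjusted p = 0.0256), and 0.12 in M2 (SE 0.07, edgeR adjusted p = 0.396). The M2 value was 0.062 without WT M2 replicate 3 and 0.183 without WT M2 replicate 1. The 2 responses differed by 0.36 (SE 0.10, edgeR adjusted p = 0.0813), and this was called with the mouse as a block (edgeR adjusted p = 0.00937), by DESeq2 (DESeq2 adjusted p = 0.0275) and without WT M2 replicate 1 (0.424, edgeR adjusted p = 0.0478).

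The C/EBP proteins bind next to PU.1 at macrophage enhancers, and C/EBPβ is induced in activated macrophages. Cebpb (chromosome 2, bases 167688915 to 167690418, plus strand) had the largest log2 fold change between the genotypes among the 9 factors over all 12 libraries, in M0 and in M2. The M0 value of Maf was larger than that of Cebpb without WT M0 replicate 3 (0.559 for Maf, -0.32 for Cebpb) and without KO M0 replicate 3 (0.454 and -0.416). Its levels in WT M0 were 164, 180 and 217 TPM, and in KO M0 143, 137 and 121 TPM. In M2 they were 114, 109 and 127 TPM in WT and 148, 144 and 143 TPM in KO. The order of the genotypes was thus opposite in the 2 treatments, without overlap in either: in M0 each KO library was below each WT library, and in M2 each was above. In M0 the log2 fold change was -0.48 (SE 0.11, edgeR adjusted p = 0.018), which is 1.39-fold lower in KO. In M2 it was 0.34 (SE 0.11, edgeR adjusted p = 0.116). The IL-4 change of Cebpb was -0.62 in WT (SE 0.11, edgeR adjusted p = 0.000457), which is 1.54-fold lower, and 0.20 in KO (SE 0.11, edgeR adjusted p = 0.149). With the mouse as a block the KO change was called (edgeR adjusted p = 0.019). Subtracting WT from KO, the responses differed by 0.82 (SE 0.16, edgeR adjusted p = 0.0151).

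For Cebpb the libraries mattered to a different degree in each comparison. The M0 genotype call was lost without KO M0 replicate 2 (-0.502, edgeR adjusted p = 0.0559), without KO M0 replicate 3 (-0.416, edgeR adjusted p = 0.0828) and in a fit of the 6 M0 libraries alone (-0.485, edgeR adjusted p = 0.0514). The call on the responses was lost without WT M2 replicate 2 (0.781, edgeR adjusted p = 0.0511) and kept in the other 11 fits without 1 library. The WT M0 library with the highest Cebpb, replicate 3 (217 TPM), also had the lowest Zeb2 (68.4 TPM), Runx1 (15.5 TPM) and Cebpa (25.1 TPM) and the highest Lyz2 (15401 TPM) of its group.

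Cebpa, whose product commits progenitors to the myeloid line, has 1 transcript in the tables and lies on chromosome 7 (bases 35119293 to 35121928, plus strand). It was measured at 33.5, 30.4 and 25.1 TPM in WT M0, and at 27.1, 23.8 and 24.5 TPM in KO M0. In M2 the values were 31.5, 27.1 and 29.8 TPM in WT and 33.3, 29.6 and 29.7 TPM in KO. IL-4 raised it in KO by 0.38 on the log2 scale (SE 0.09, edgeR adjusted p = 0.00332), where the M0 and M2 libraries were separate, and gave 0.057 in WT (SE 0.09, edgeR adjusted p = 0.639), where they overlapped. The responses of KO and WT differed by 0.32 (SE 0.13, edgeR adjusted p = 0.214), so that the change in KO was not shown to differ from that in WT. Between KO and WT it gave -0.23 in M0 (edgeR adjusted p = 0.136) and 0.092 in M2 (edgeR adjusted p = 0.611). The M0 value was called without WT M0 replicate 3 (-0.306, edgeR adjusted p = 0.0454), and the M2 value was 0.007 without KO M2 replicate 1.

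The ratio of Cebpb to Cebpa within a library does not depend on how the library was scaled. In M0 it was 4.89, 5.93 and 8.66 in WT and 5.3, 5.78 and 4.92 in KO, and in M2 it was 3.6, 4.02 and 4.27 in WT and 4.44, 4.89 and 4.82 in KO. The WT M2 libraries had the lowest ratios, below every other group. On the log2 scale the ratio fell with IL-4 by 0.67 in WT and by 0.18 in KO, and KO exceeded WT by 0.25 in M2 (exact permutation p = 0.1 for each, two-sided, adjusted p = 0.133 over 8 comparisons). In M0 the genotypes overlapped (difference -0.25, exact permutation p = 0.5), and the difference was -0.018 without WT M0 replicate 3 and -0.429 without WT M0 replicate 1. Without WT M0 replicate 3 the WT fall with IL-4 was -0.446, and without KO M0 replicate 2 the KO value was -0.117. With 3 against 3 libraries 0.1 is the smallest p this test can give. By mouse the ratio fell with IL-4 in 3 of 3 WT and 3 of 3 KO mice (exact sign-flip p = 0.25 for each, the smallest possible).

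MAF helps to keep differentiated macrophages from dividing and controls genes of tissue macrophages. Maf (chromosome 8, bases 115682942 to 115707794, minus strand) moved in opposite directions with IL-4 in the 2 genotypes. Its levels were 52, 51.8 and 61.9 TPM in WT M0 and 81, 72.7 and 72.6 TPM in KO M0. In M2 they were 68.4, 70.3 and 62.5 TPM in WT and 64.9, 55.9 and 58.7 TPM in KO. In M0 the KO libraries lay above the WT libraries, and in M2 the genotypes overlapped. KO exceeded WT in M0 by 0.43 on the log2 scale (SE 0.11, edgeR adjusted p = 0.0237), which is 1.35-fold, and gave -0.17 in M2 (SE 0.11, edgeR adjusted p = 0.393). IL-4 raised Maf in WT by 0.32 (SE 0.11, edgeR adjusted p = 0.0246), where the M0 and M2 libraries were separate in TPM and overlapped in CPM (counts scaled to the library total). In KO the IL-4 change of Maf was -0.28 (SE 0.10, edgeR adjusted p = 0.0379). The responses differed by -0.60 (SE 0.15, edgeR adjusted p = 0.049).

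Each Maf call depended on single libraries, while its sign did not change in any fit without 1 library. The M0 genotype call was lost without WT M0 replicate 1 (0.371, edgeR adjusted p = 0.0676), WT M0 replicate 2 (0.379, edgeR adjusted p = 0.1), KO M0 replicate 1 (0.38, edgeR adjusted p = 0.0825), KO M0 replicate 2 (0.461, edgeR adjusted p = 0.0591) or KO M0 replicate 3 (0.454, edgeR adjusted p = 0.0612). The IL-4 call in WT was lost without replicates 1 and 2 of WT M0 (0.259 and 0.262) and of WT M2 (0.3 and 0.27), with edgeR adjusted p from 0.0671 to 0.0934. In KO it was lost without replicates 1, 2 or 3 of KO M0 (-0.23, -0.312 and -0.305) and 2 or 3 of KO M2 (-0.216 and -0.253), with edgeR adjusted p from 0.0533 to 0.142. The call on the difference of the responses was lost in 9 of 12 such fits, those without replicate 1 or 2 of either WT group, any KO M0 library, or KO M2 replicate 2 or 3, where it ran from -0.535 to -0.63 (edgeR adjusted p from 0.0684 to 0.132). The M2 genotype value, not called, ran from -0.105 without KO M2 replicate 2 to -0.266 without KO M2 replicate 1. DESeq2 called all 4 comparisons in which edgeR called Maf.

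MITF and TFEC can pair with each other and with TFEB and TFE3, and TFEC is a member known mainly from macrophages and osteoclasts. Tfec (chromosome 6, bases 16833373 to 16898441, minus strand) was the factor most raised by IL-4. It was measured at 23, 27.9 and 27.2 TPM in WT M0 and at 21.8, 23.1 and 20.7 TPM in KO M0. With IL-4 it was measured at 54, 56.7 and 55.6 TPM in WT and at 52.5, 60.2 and 63.4 TPM in KO, so that every M2 library lay above every M0 library. The log2 fold change was 1.15 in WT (SE 0.09, edgeR adjusted p = 2.03e-07), or 2.22-fold, and 1.50 in KO (SE 0.08, edgeR adjusted p = 1.43e-08), or 2.83-fold. The difference of 0.35 between these responses was not called (SE 0.12, edgeR adjusted p = 0.141), although it was without WT M0 replicate 1 (0.455, edgeR adjusted p = 0.0176). KO against WT gave -0.24 in M0 (SE 0.09, edgeR adjusted p = 0.0999) and 0.11 in M2 (SE 0.08, edgeR adjusted p = 0.486). In fits without 1 library the M2 value ran from 0.06 to 0.157. The M0 value was called without WT M0 replicate 1 (-0.346, edgeR adjusted p = 0.0127).

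Mitf (chromosome 6, bases 97807052 to 98021349, plus strand) rose with IL-4 in both genotypes, and less in KO. Its levels were 31.2, 30.5 and 27.1 TPM in WT M0 and 39.3, 37.3 and 32.2 TPM in KO M0. In M2 they were 55.2, 54 and 44.6 TPM in WT and 41.4, 43.6 and 43.2 TPM in KO. As with Cebpb, the genotypes were separate in both treatments and in opposite order, with KO above WT in M0 and below it in M2. IL-4 raised Mitf in WT by 0.86 (SE 0.07, edgeR adjusted p = 4.83e-07), or 1.82-fold, and in KO by 0.42 (SE 0.07, edgeR adjusted p = 0.000213), or 1.34-fold. On log2(TPM + 1) the KO change was 0.24 and missed the threshold (limma adjusted p = 0.057). Between KO and WT the log2 fold change was 0.20 in M0 (SE 0.07, edgeR adjusted p = 0.0955) and -0.24 in M2 (SE 0.07, edgeR adjusted p = 0.0848), the latter called by DESeq2 (DESeq2 adjusted p = 0.0305) and without WT M2 replicate 3 (-0.334, edgeR adjusted p = 0.011). The responses differed by -0.44 (SE 0.10, edgeR adjusted p = 0.0306).

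The call of that Mitf difference was lost in 9 of the 12 fits without 1 library, those without WT M0 replicate 2 or 3, WT M2 replicate 1 or 2, any KO M0 library, or KO M2 replicate 2 or 3. In these fits the value ran from -0.385 to -0.465 (edgeR adjusted p from 0.051 to 0.0954). On log2(TPM + 1) it was -0.533 (limma adjusted p = 0.086). The abundance-weighted transcript length that enters TPM was 4290 and 4468 nt in KO M0 replicates 1 and 2 and 4839 to 4881 nt in the other 10 libraries, so that the estimated mix of Mitf transcripts stood apart in those 2 libraries. Counts are not divided by this length.

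The ratio of Tfec to Mitf combined both patterns. In M0 it was 0.735, 0.917 and 1 in WT and 0.554, 0.621 and 0.643 in KO, and in M2 it was 0.977, 1.05 and 1.25 in WT and 1.27, 1.38 and 1.46 in KO. The KO M0 libraries had the lowest ratios and the KO M2 libraries the highest. On the log2 scale KO differed from WT by -0.54 in M0 and by 0.34 in M2, and IL-4 raised the ratio in KO by 1.18 (exact permutation p = 0.1 for each, two-sided, adjusted p = 0.133), the smallest p possible. In WT the M0 and M2 libraries overlapped as groups (difference 0.31, exact permutation p = 0.2, adjusted p = 0.229), while the ratio rose within each of the 3 mice, by 0.41, 0.19 and 0.31 on the log2 scale. The difference between the groups was 0.178 without WT M0 replicate 1 and 0.206 without WT M2 replicate 3. An exact sign-flip test within mice, added after the data were seen, gave p = 0.25 there and in KO, the smallest that 3 mice allow. The ratio rests on TPM, and hence on the Mitf lengths given above.

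**Figure D3:**
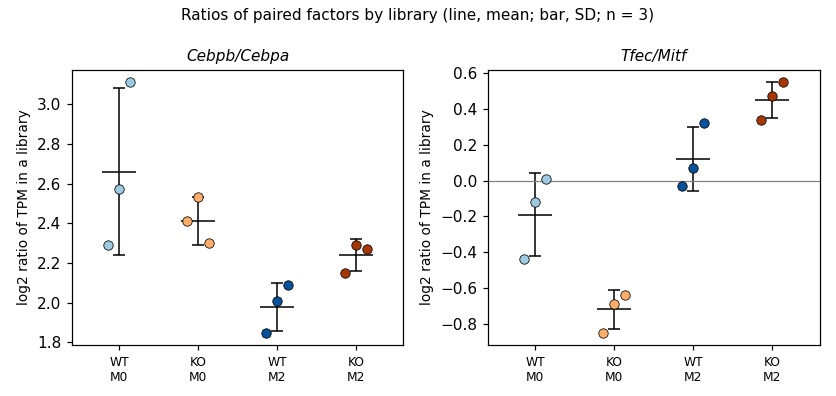
Log2 ratio of the TPM of Cebpb to Cebpa (left) and of Tfec to Mitf (right) in each library (points), with a line for the mean and a bar for the SD of each group (n = 3); the vertical axes do not start at 0. The WT M2 libraries have the lowest Cebpb to Cebpa ratios, and the Tfec to Mitf ratios of KO go from the lowest of all in M0 (mean -0.72) to the highest in M2 (mean 0.45).

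Zeb2 (chromosome 2, bases 44983632 to 45117395, minus strand) rose with IL-4 in both genotypes. Its levels were 101, 86.8 and 68.4 TPM in WT M0 and 106, 97.6 and 97 TPM in KO M0. After IL-4 they were 169, 171 and 146 TPM in WT and 126, 160 and 144 TPM in KO, each M2 library above each M0 library. IL-4 raised it by 0.95 in WT (SE 0.08, edgeR adjusted p = 1.13e-06), or 1.94-fold, and by 0.60 in KO (SE 0.08, edgeR adjusted p = 5.47e-05), or 1.52-fold. The responses differed by -0.35 (SE 0.12, edgeR adjusted p = 0.142), which passed the threshold with the mouse as a block (edgeR adjusted p = 0.0201) and without WT M0 replicate 1 (-0.43, edgeR adjusted p = 0.0472). The genotypes overlapped in both treatments, with 0.16 in M0 (SE 0.08, edgeR adjusted p = 0.253) and -0.19 in M2 (SE 0.08, edgeR adjusted p = 0.233). The M0 value was 0.076 without WT M0 replicate 3 and 0.243 without WT M0 replicate 1. Zeb2 supplied 97.4% of the summed TPM of the 2 ZEB genes in WT M0 and 99% in WT M2. Its relative Zeb1 stood at 2.26 TPM in WT M0 and fell with IL-4 in WT (log2 fold change -0.58, edgeR adjusted p = 0.0104), with a value of -0.078 in KO (edgeR adjusted p = 0.712).

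**Figure D4:**
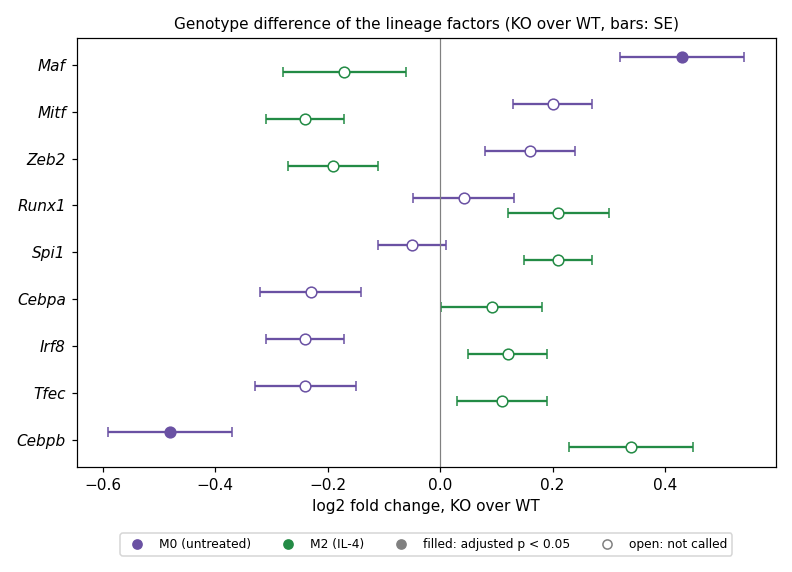
Log2 fold change of KO over WT (horizontal axis) for the 9 factors in M0 (purple) and M2 (green), with bars for the SE, filled points where the edgeR adjusted p was under 0.05 and open points elsewhere. Maf (0.43) and Cebpb (-0.48) in M0 are the filled points, and the M2 values of both lie on the other side of 0 (-0.17 and 0.34).

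The relatives of the factors, listed by family, placed these levels in context. Among the 7 C/EBP genes Cebpb supplied 60.2% of the summed TPM in WT and 54.2% in KO in M0, and 44.6% and 49.6% in M2. Cebpd, induced in acute responses, rose with IL-4 in WT (log2 fold change 0.75, edgeR adjusted p = 0.0234) and KO (1.25, edgeR adjusted p = 0.000769), and Ddit3, a stress-induced member, rose by 0.90 and 0.95.

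Among the MiT/TFE genes Tfe3 was the most abundant at 107 to 121 TPM, averaged by group. Tfeb rose with IL-4 by 0.57 in WT and 0.56 in KO (edgeR adjusted p = 4.56e-06 and 3.24e-06). Of the 4 genes, 3 rose in WT (Tfec, Mitf, Tfeb) and 4 in KO, against 24.9% and 26.8% of all tested genes. These counts include Tfec and Mitf, described above, and of the 2 relatives alone 1 rose in WT and 2 in KO. Irf5, a factor of inflammatory macrophages, was the most abundant IRF gene (212 TPM in WT M0), and Irf4, known for alternative activation, rose with IL-4 from 0.28 to 3.09 TPM in WT (log2 fold change 3.50, edgeR adjusted p = 3.89e-07) and to a mean of 3.95 TPM in KO M2. Irf9 and Irf1 were the IRF genes called between the genotypes in M0, at 0.27 (edgeR adjusted p = 0.00951) and -0.27 (edgeR adjusted p = 0.0284). Of the 17 ETS genes listed 15 were tested. Fli1 (0.34, edgeR adjusted p = 0.00198) and Elf2 (0.22, edgeR adjusted p = 0.0205) were higher in KO M0 and 0 were lower (background 5.50% and 4.27%). In M2, 0 of the 15 were called (background 2.68%), with 0.015 for Fli1 and -0.17 for Elf2 (edgeR adjusted p = 0.899 and 0.107). With IL-4, Fli1 rose in WT (0.16, edgeR adjusted p = 0.0251) and fell in KO (-0.17, edgeR adjusted p = 0.0125). Elf2 rose in WT (0.36, edgeR adjusted p = 8.37e-05) and gave -0.023 in KO (edgeR adjusted p = 0.728). Their responses differed by -0.33 and -0.38 (edgeR adjusted p = 0.0306 and 0.0151).

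**Figure D5:**
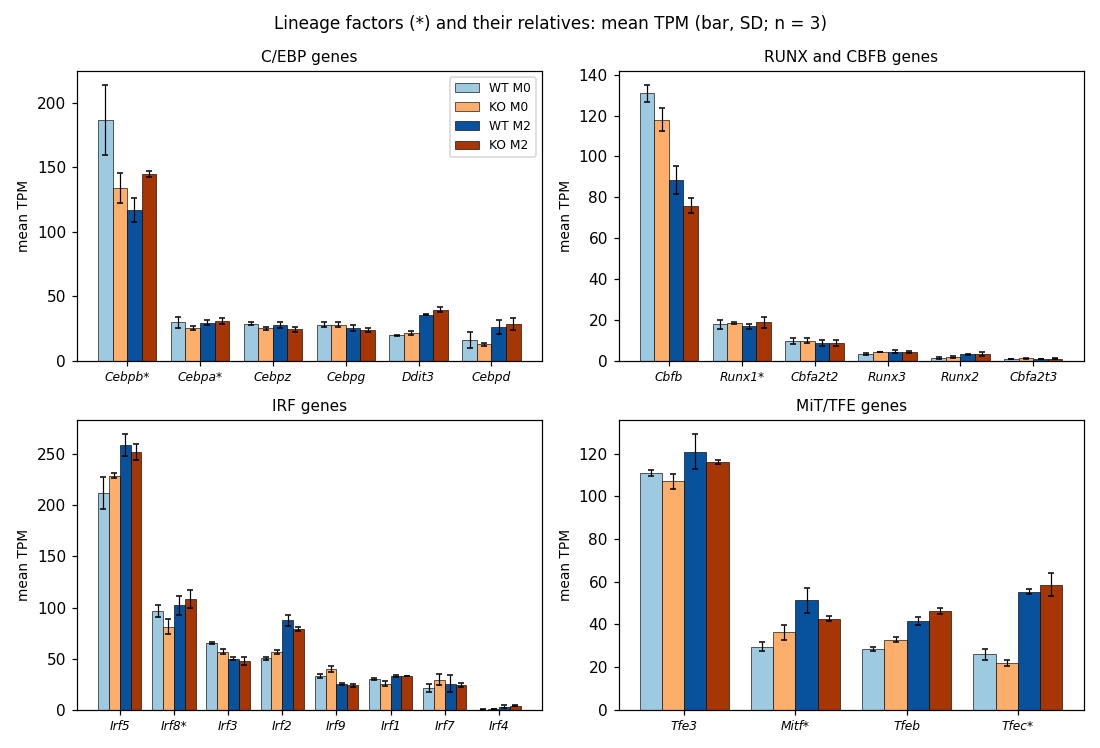
Mean TPM (vertical axis, from 0) of the C/EBP, RUNX and CBFB, IRF and MiT/TFE genes that reached 1 TPM in a group, in the 4 groups (bars, with the SD as error, n = 3), with an asterisk on the factors examined here. Cebpb leads the C/EBP genes, Cbfb exceeds Runx1 in every group, Irf5 exceeds Irf8, and Tfe3 exceeds Mitf and Tfec.

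Genes known as targets of the factors were counted by list, and all 5 lists held genes that rose and genes that fell with IL-4. Of the 18 PU.1 and RUNX1 targets, 6 were higher and 1 lower in KO M0 (background 5.50% and 4.27%), led by Fcgr2b, an inhibitory Fc receptor (-0.82, edgeR adjusted p = 0.0345), Cybb, the catalytic subunit of the phagocyte oxidase (0.62, edgeR adjusted p = 0.0113), and Tlr4, the receptor for lipopolysaccharide (0.59, edgeR adjusted p = 0.000284). In M2, 1 of the 18 was higher (background 1.21%), Cybb (0.58, edgeR adjusted p = 0.04). Cd68, a lysosomal marker of macrophages and the most abundant gene of the list at group means of 1453 to 1540 TPM, gave -0.061 in M0 and -0.0036 in M2 (edgeR adjusted p = 0.605 and 0.985). IL-4 raised 9 and lowered 5 of the list in WT, and raised 8 and lowered 5 in KO (background 24.9% and 25.1% in WT, 26.8% and 26.0% in KO).

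Of the 10 tested C/EBP targets, 1 was higher and 3 lower in KO M0 (background 5.50% and 4.27%): Lyz2 (-8.30), which carries the Cre insertion, Il1b, an inflammatory cytokine (-1.34, edgeR adjusted p = 0.0437), and Ptgs2, the inducible cyclooxygenase (-0.85, edgeR adjusted p = 0.00143), were lower, and Msr1, a scavenger receptor (0.60, edgeR adjusted p = 0.000402), was higher. In M2, 1 was higher, Msr1 (0.35, edgeR adjusted p = 0.0257), and 1 lower, Lyz2 (-8.57), against a background of 1.21% and 1.46%. Because Lyz2 carries Cre in KO, its calls between the genotypes tell nothing of C/EBP targets. Apart from it, Il1b and Ptgs2 were the lower genes in M0. The Ptgs2 response to IL-4 was larger in KO (2.02) than in WT (1.18), with a difference of 0.84 (edgeR adjusted p = 0.015). IL-4 raised 3 and lowered 6 of these 10 in WT (background 24.9% and 25.1%), led by Ptges, a prostaglandin E synthase (-4.25, edgeR adjusted p = 2.07e-10), and raised 3 and lowered 5 in KO (background 26.8% and 26.0%). Of the 14 tested targets of MAF-family factors, 1 was higher and 4 lower in KO M0 (background 5.50% and 4.27%), with Mrc1, the mannose receptor (-0.86, edgeR adjusted p = 0.000522), Folr2, a folate receptor (-0.65, edgeR adjusted p = 0.0165), and C1qa, a complement subunit (-0.38, edgeR adjusted p = 0.00685), among those lower. Mrc1 rose more with IL-4 in KO (3.96) than in WT (3.27), with a difference of 0.69 (edgeR adjusted p = 0.0233). IL-4 raised 5 and lowered 2 of these 14 in WT (background 24.9% and 25.1%) and raised 6 and lowered 1 in KO (background 26.8% and 26.0%). In M2, 1 of the 14 was higher in KO (background 1.21%), Axl (0.54, edgeR adjusted p = 0.0229).

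Of the 14 tested MiT/TFE targets, 1 was lower in KO M0 (background 4.27%), Sqstm1, an autophagy receptor (-0.39, edgeR adjusted p = 0.00727), and 1 was higher in M2 (background 1.21%), Flcn (0.29, edgeR adjusted p = 0.0275). IL-4 raised 6 and lowered 3 of them in WT (background 24.9% and 25.1%) and raised 5 and lowered 2 in KO (background 26.8% and 26.0%), led by Atp6v0d2, a proton pump subunit of osteoclasts and macrophages (3.14 in WT, 3.05 in KO). Of the 14 tested IRF8 targets, 4 were higher and 1 lower in KO M0 (background 5.50% and 4.27%), and 2 were higher in M2 (background 1.21%). IL-4 raised 6 and lowered 4 of these in WT and raised 7 and lowered 4 in KO, beside the IL-4 background shares just given. Among them Cd40, a co-stimulatory receptor, was lower in KO M0 (-0.42, edgeR adjusted p = 0.015) and higher in KO M2 (0.46, edgeR adjusted p = 0.0156), and its IL-4 responses differed by 0.89 (edgeR adjusted p = 0.00405). The target lists share genes: Cybb stands in both the PU.1 and the IRF8 list, and others stand in the PU.1 and C/EBP lists or in the C/EBP and MAF lists. Further regulators of myeloid lineages were 25 tested genes, of which 2 were higher and 4 lower in KO M0 (background 5.50% and 4.27%), led by the inhibitors of DNA binding Id3 (-2.14, edgeR adjusted p = 2.66e-05) and Id1 (-1.83, edgeR adjusted p = 7.4e-07) and by Klf2 (1.06, edgeR adjusted p = 0.0219). In M2, 0 of the 25 were called (background 2.68%), with -0.52 for Id3, 0.037 for Id1 and 0.56 for Klf2 (edgeR adjusted p = 0.181, 0.859 and 0.256). The KO minus WT difference of the IL-4 responses was called above 0 for 3 of the 25 and below 0 for 0 (background 1.11% and 2.13%). Id1 (1.86, edgeR adjusted p = 4.19e-05) and Id3 (1.62, edgeR adjusted p = 0.00741) were among them.

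Of the 17 tested markers on the lists of other cells, 2 differed between the genotypes in M0 and 1 in M2 (background 9.78% and 2.68%). In M0 the neutrophil genes S100a9 (-1.38, edgeR adjusted p = 0.0124) and Ltf (-2.09, edgeR adjusted p = 0.00759) were lower in KO, at group means of 18.3 and 3.78 TPM in WT and 6.95 and 0.887 TPM in KO. In M2, Pf4, a chemokine of platelets that macrophages also make, was higher in KO (0.38, edgeR adjusted p = 0.0414), at 1480 TPM against 1167 TPM in WT. It supplied nearly all of the erythroid and megakaryocyte list, which summed to 1150 to 1198 TPM in WT M2 and 1431 to 1558 TPM in KO M2, while 5 of its 7 genes, Gata1, Klf1 and the globins, stayed under 1 TPM. Spi1, Cebpa and Cebpb are also used by neutrophils and their precursors, and the part of these cells in the M0 values was not tested.

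Genes whose level followed a factor most closely over the 12 libraries were sought among the 9746 tested genes that averaged 5 CPM or more, as a description in which the libraries share 2 treatments and 2 genotypes. For Tfec they were Ppil3 (Pearson r = 0.996 on log2 CPM), Fcgr2b (0.995) and Man1a (0.995). For Zeb2 they were Stxbp5 (0.996), Gab2 (0.994) and Dock4 (0.994), and for Mitf Rrbp1 (0.989), Tbc1d2b (0.989) and Spred1 (0.983). The best values of Cebpb and Maf were 0.936 with Fas and 0.909 with Anxa7. Among the factors themselves Mitf and Zeb2 were closest (r = 0.98), followed by Tfec and Zeb2 (0.89).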

How the data were processed

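Poly(A) RNA of 12 BMM libraries (4 groups of 3, taken from the sample labels) was sequenced by the authors with a directional kit as single reads of 75 nt, checked with FastQC 0.11.2 and processed with the Grape-nf pipeline on GRCm38/mm10. The aligner, quantifier and annotation release behind these tables are not given in the sources used here; a Gencode release that the study names for a motif analysis only was not used. The deposited table of a library holds expected counts (estimated reads per gene, not normalized) and TPM (scaled by transcript length and library total) for 38887 genes, with posterior-mean versions and abundance-weighted transcript lengths. Their DESeq2 1.40.2 tables hold the authors' own comparisons and served only for gene symbols: 21000 IDs were named from them, 16570 from GENCODE M21 (also the source of coordinates), and 1317 had no symbol.

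Expected counts were rounded and filtered with filterByExpr by group, which left 12846 genes, and fitted over all 12 libraries with edgeR 4.0.16 (TMM factors, 1 coefficient per group, quasi-likelihood F test, R 4.3.3). The p-values were adjusted over all tested genes (Benjamini-Hochberg), calls were made under an adjusted p of 0.05, and SEs were derived from the F statistics. The common biological coefficient of variation was 8.08%. TPM ratios were compared by exact permutation (scipy 1.17.1). The fit was tested on simulated data first. No member had fewer than 555 counts in a library. The p-values of the fit rest on a spread between libraries that is estimated over the 4 groups together and partly shared across genes. The main fit takes the M0 and M2 libraries of a mouse as independent, and the fit with the mouse as a block does not. Where a read could come from another gene, the deposited tables gave a posterior SD of 0 for the counts of all 9 members, as for 78.4% of all tested genes, while the credible interval of a member's TPM spanned up to 1.53-fold (Mitf).

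Same-numbered M0 and M2 libraries of a genotype deviated together from their group means (correlations 0.103 to 0.364), so the number was taken as the mouse and, where a mouse block changed an IL-4 call, its value is given; same-numbered libraries of WT and KO did not (-0.0684 to 0.0403). Alternatives were DESeq2 1.42.0, RLE factors, 2 other filters, limma 3.58.1 on log2(TPM + 1) and log2(TPM + 0.1), the replicate block, only the 6 libraries compared, posterior-mean TPM, leaving out each library and, added after the data were seen, sign flips of the TPM ratios within mice.

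The members and all gene lists were chosen with earlier results of these data known. All 9 members are named; from other lists, at most the 3 called genes with the largest change and the 2 most abundant, plus family relatives of at least 1 TPM, and the 3 genes most like a member for the 5 members with the largest IL-4 change in WT. The target lists were compiled from general knowledge. The relatives of Maf and 1 further listed gene are not reported here.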

Additional observations from a re-analysis of the deposited data

Results flagged for a closer look

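The effect of IL-4 differed between the genotypes, by a test of the difference itself, for 3 of the 9 factors. The log2 fold change of IL-4 in KO minus that in WT was 0.82 for Cebpb (edgeR adjusted p = 0.0151), -0.44 for Mitf (edgeR adjusted p = 0.0306) and -0.60 for Maf (edgeR adjusted p = 0.049). The underlying responses were -0.62 in WT and 0.20 in KO for Cebpb, 0.86 and 0.42 for Mitf, and 0.32 and -0.28 for Maf, each from 3 mice per group. Of all 12846 tested genes, 416 were called in this comparison, which is 3.24%. Leaving out 1 library kept the Cebpb call in 11 of 12 fits, and the Mitf and Maf calls in 3 of 12 each. What underlies the differences was not tested.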

How the results depend on the processing

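Among the recomputed fold changes of the members, 607 kept their direction and their side of the threshold, 40 lost the call, 21 gained it and 7 turned sign. RLE size factors and no filter on low counts changed no call of a member. The M0 genotype count of 2 factors was 1 in a fit of the 6 libraries compared, and 0 to 3 without 1 library. The M2 count of 0 was 3 by DESeq2 and 0 to 1 without 1 library. The count of 3 for differing IL-4 responses was 5 by DESeq2 (Spi1 and Irf8 added), 6 with the mouse as a replicate block (Spi1, Irf8 and Zeb2 added) and 0 to 4 without 1 library, with 0 reached without WT M2 replicate 2. With the replicate block across genotypes, where numbers do not pair mice, Cebpa was also called in M0 (-0.226, edgeR adjusted p = 0.0435). Beside these, the block added Irf8 for IL-4 in WT and Cebpb for IL-4 in KO, and it changed no other call of a member. Over all genes the M0 count of 1256 was 752 by limma on log2(TPM + 1), 700 on log2(TPM + 0.1) and 461 to 1461 without 1 library; the M2 count of 344 was 716 by DESeq2, 70 and 57 by limma, 165 in the 6 libraries alone and 25 to 298 without 1 library; and the count of 416 for differing responses was 820 by DESeq2, 113 by limma on either scale, 1003 with the mouse block and 183 to 643 without 1 library. Signs turned in small values that were not called: Cebpa with IL-4 in WT gave -0.002 on log2(TPM + 1), -0.001 on log2(TPM + 0.1) and -0.022 to 0.132 without 1 library (-0.022 without WT M0 replicate 3); Spi1 with IL-4 in KO gave -0.087 on either TPM scale and -0.035 to 0.077 without 1 library (-0.035 without KO M2 replicate 1); and Runx1 in M0 gave -0.026 to 0.106 without 1 library (-0.026 without WT M0 replicate 3). The cause was not tested. With posterior-mean TPM, 6 of 36 group means moved by more than 1 SD. The exact tests of the ratios could not go below p = 0.1 with 3 mice per group.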
